A study of Mus musculus with 217 samples.

Results

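Single metaphase II oocytes of Tet2 knockout mice that drank resveratrol were compared between 10 months of age (group OKOR, 15 oocytes) and 6 months of age (group MKOR, 20 oocytes). The members were taken by the group letters that begin each column name, and pooled granulosa cells, whose names begin with GC, were left out. They make up 35 of the 217 libraries of the series, on a mixed C57BL6/129 background. Both groups are labelled Tet2 knockout. Both were given resveratrol, a polyphenol found in grapes, from 2 months of age. Their drinking water held 30 mg per L, added from a DMSO solution. Age is the labelled difference between them. The older mice were also treated for longer, so age and length of treatment cannot be told apart. Their controls in the series are wild-type and knockout oocytes of 6 and 10 months with DMSO alone (MWTC, MKOC, OWTC and OKOC), wild-type oocytes with resveratrol (MWTR and OWTR), and young oocytes of 2 months (YWT and YKO). Mice were superovulated with pregnant mare serum gonadotropin and hCG, eggs were taken from the oviduct, and the surrounding cumulus cells were removed with hyaluronidase. The labels name no mouse for any oocyte, nor the part of Tet2 that the knockout removes.

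A metaphase II oocyte is the ovulated egg, arrested in its second meiotic division until fertilisation. It makes little or no new RNA, so its transcripts were stored during growth and are used, polyadenylated or degraded during maturation. Tet2 belongs to the Tet family of enzymes, which oxidise 5-methylcytosine in DNA, and Tet3 is the family member best known in the egg. Resveratrol has been studied in ovarian ageing as a compound that may act through the deacetylase Sirt1 and through protection against oxidants.

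Each library was made from 1 oocyte with Smart-seq2, which copies full-length polyadenylated RNA. Counts per oocyte ranged from 4305179 to 4550740 in OKOR and from 3386039 to 6092898 in MKOR, with 16479 to 18245 and 16412 to 18801 genes detected. Because no mouse is named, each group was treated as 1 sample: counts were summed over its oocytes, and a level is given in CPM (counts scaled to a total of 1e+06) of that sum, with the range over single oocytes beside it. The ranges describe oocytes, not mice. Tet2 was low in both groups, at 0.941 CPM in OKOR (95% Poisson interval 0.722 to 1.21) and 1.08 CPM in MKOR (0.874 to 1.31), against 2.3 to 3.39 CPM in the 5 wild-type sums. Single oocytes held 0 to 2.3 CPM in OKOR and 0 to 3.15 CPM in MKOR, so the level does not identify the genotype of 1 oocyte. Tet3 stood at 739 and 714 CPM and Tet1 at 1.84 and 2.37 CPM, with overlapping ranges for both genes and an adjusted p of 0.970 and 0.965. The egg-specific growth factors Gdf9 and Bmp15 were abundant throughout, with the lowest single oocyte at 3964 CPM of Gdf9 in OKOR and 3088 CPM of Bmp15 in MKOR.

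The 20 MKOR oocytes were of 2 kinds, which bears on several results. Manba, which encodes the lysosomal enzyme beta-mannosidase (chr3:135485611-135571404, 1.94 Mb from Tet2 on the same chromosome), lay between 44.7 and 135 CPM in 12 of them and between 0.218 and 9.89 CPM in the other 8. In the 15 OKOR oocytes it lay between 0 and 2.76 CPM, and no oocyte of the other knockout groups exceeded 3.73 CPM, while the 5 wild-type sums stood at 104 to 220 CPM. Among the wild-type groups, 15 of 18 young oocytes were above 20 CPM, as was every wild-type oocyte of 6 and 10 months. The young ones below it, at 0.678 to 2.41 CPM, were those with first number 3 or 4 in the column name. Apart from the 12 MKOR oocytes, no oocyte titled knockout exceeded 20 CPM. The young wild-type oocytes are tagged as knockout too, and their title was followed. Whether any 1 of the 12 has the labelled genotype cannot be told from its Tet2 level, and the genotype was not tested. The MKOR sum and ranges of every gene include the 12. In all comparisons here the genotype is therefore held constant by label alone, not only for Manba and the genes that divide with it. Tet2 itself did not divide them, since it ranged from 0 to 2.63 CPM (median 0.873) in the 12 and from 0 to 3.15 CPM (median 0.798) in the 8. As a set, the 12 had a Tet2 median within the medians over oocytes of the other knockout groups (0.692 to 1.38 CPM). It was below the medians of the wild-type groups (1.75 to 3.22 CPM). The first number in the column names did not divide them either: 2 of 3, 5 of 9 and 5 of 8 oocytes of its 3 values were of the high kind.

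Other genes divided the same oocytes. Of 8762 genes with a mean of at least 5 CPM in MKOR, 75 (0.856%) separated the same 12 from the same 8 without overlap, 38 higher in the 12 and 37 lower. Chromosome 17 held 13 of the 61 genes with a known position, which is 4.11% of its 316 genes considered. The next by share were chromosome 8 with 6 of 387 (1.55%), chromosome 12 with 4 of 298 (1.34%) and chromosome 2 with 8 of 599 (1.34%). Slc39a8, a zinc transporter gene near Manba (chr3:135825279-135888572), ranged from 7.48 to 70.2 CPM in the 12 and from 0 to 1.25 CPM in the 8. Mtfr2, a regulator of mitochondrial fission on chromosome 10, ranged from 707 to 1363 CPM in the 12 and from 20.6 to 42.9 CPM in the 8. Ugcg, which encodes the enzyme that starts glucosylceramide synthesis, was at 47.3 CPM or more in the 12 and ranged from 4.71 to 13.2 CPM in the 8. In the other direction Kctd5, an adaptor of a ubiquitin ligase, was lower in the 12 (134 to 356 CPM) than in the 8 (543 to 1214 CPM), and Ppp1r10, a subunit of protein phosphatase 1 complexes, ranged from 36.4 to 62.1 CPM and from 240 to 461 CPM. These genes were chosen after their values were seen, and the 2 kinds are described by their ranges alone.

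**Figure D1:**
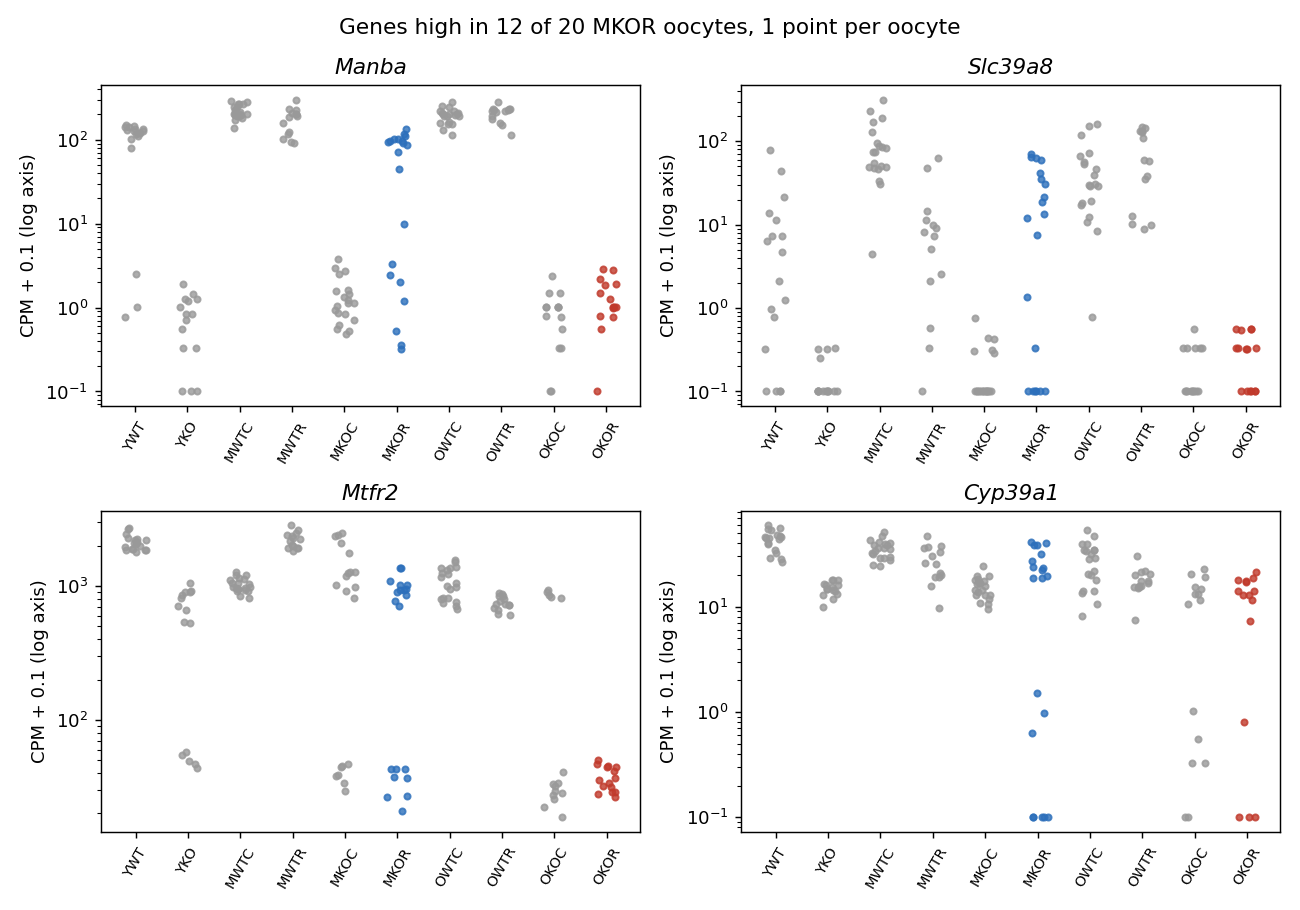
Levels of Manba, Slc39a8, Mtfr2 and Cyp39a1 in CPM plus 0.1 on a log axis, with 1 point per oocyte and groups along the horizontal axis (MKOR in blue, OKOR in red, the other 8 groups in grey). MKOR splits into an upper and a lower cloud in each panel, while all 15 OKOR oocytes lie low for Manba (0 to 2.76 CPM) and Mtfr2 (26.2 to 49.8 CPM).

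For these genes OKOR did not always resemble one kind. Manba and Slc39a8 (0 to 0.462 CPM in OKOR) and Mtfr2 (26.2 to 49.8 CPM) were at the level of the lower 8. Cyp39a1, an oxysterol hydroxylase gene on chromosome 17, ranged from 0 to 21.3 CPM in OKOR and spanned both kinds, which held 18.6 to 41.1 CPM in the 12 and 0 to 1.41 CPM in the 8. Within OKOR Cyp39a1 followed the first number in the column names. It was at 0 to 0.697 CPM for number 2 and 7.13 to 21.3 CPM for numbers 1 and 3. Mtfr2 also took high and low values within other knockout groups. Its range was 43.9 to 1050 CPM in YKO, 29.2 to 2490 CPM in MKOC and 18.6 to 942 CPM in OKOC. In YKO it followed the first number, at 43.9 to 56.9 CPM for number 1 and 526 CPM or more for number 2. In OKOC it was at 815 CPM or more for number 1 and 40.3 CPM or less for numbers 2 and 3. In MKOC both levels of Mtfr2 occurred within numbers 2 and 3. In the 5 wild-type groups its lowest oocyte was at 607 CPM. Other dividing genes varied among wild-type oocytes too. Slc39a8 ranged from 0 to 79.6 CPM in YWT and from 0 to 62.4 CPM in MWTR. Ugcg ranged from 2.28 to 272 CPM in OWTC, where every oocyte of first number 1 was at 14.7 CPM or less. Kctd5 ranged from 567 to 738 CPM in MWTR and from 89.8 to 263 CPM in MWTC.

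The question the comparison asks is which transcripts differ between 10 and 6 months when the labelled genotype and resveratrol dose are held constant. Length of treatment differed along with age. The sums were tested with edgeR's quasi-likelihood test, in which the 2 groups have their own means and the other 8 group sums supply the spread. Of 22239 genes tested, 0 were higher at 10 months (0%) and 1 was lower (0.0045%) at an adjusted p under 0.05. At an unadjusted p under 0.05 there were 481 higher and 680 lower, 5.22% of all genes. DESeq2 in the same design called 17 higher (0.0764%) and 66 lower (0.297%). Astl, Uqcr11, Ctsd, Slc39a8 and Mtfr2 were among the 66, though edgeR did not call them. In a fit of 26 sums split by the first number in the column names, whose meaning the labels do not give, 386 of 19666 genes were higher (1.96%) and 729 lower (3.71%). There 39 of the 60 genes named by rule or chosen after their values were seen passed, so which genes pass depends on the unit that is summed. The fit of group sums means the edgeR fit. Where no other fit is named, a gene that passed or did not pass is one of that fit. If the first numbers mark oocytes of 1 mouse or 1 day of collection, the spread in the fit of 26 sums is the spread between them. The labels do not say so.

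Manba was the 1 gene that fell. Its sum was 1.28 CPM in OKOR (95% interval 1.02 to 1.58) against 57.6 CPM in MKOR (56.1 to 59.2), a log2 difference of -5.43 with a standard error of 0.38 and an adjusted p of 0.0162. No OKOR oocyte was above the MKOR median of 78.4 CPM, but the ranges overlap because of the lower 8 MKOR oocytes. Without the 12 MKOR oocytes above 20 CPM, a choice made on Manba itself, the log2 difference was -0.83 with an adjusted p of 0.743. Without the other 8 it was -6.18 (adjusted p of 0.00916). Leaving out the MKOC sum or the OWTC sum from the spread moved the adjusted p to 0.0542 and 0.135.

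The remaining genes chosen for the size of a negative difference did not pass in the fit of group sums, each with an adjusted p of 0.870. With Manba, 9 of the 10 passed in the fit of sums by the first number in the column names, all but Tor1b, and DESeq2 passed Mtfr2. Over all genes 3.71% were lower in the fit by first number. These 10 were picked by size in the same oocytes, so such calls are no independent support. Mtfr2 stood at 36.7 CPM against 602 CPM (log2 -3.97, SE 0.71), and without the 12 MKOR oocytes of high Manba its log2 difference was 0.18. A second set of these genes was high in some MKOR oocytes and near 0 in OKOR. Spp1, which encodes the secreted matrix protein osteopontin, ranged from 0 to 0.460 CPM in OKOR and from 0.404 to 748 CPM in MKOR, where 9 oocytes lay at 90.4 CPM or more and 11 at 8.86 CPM or less. These 9 are not the Manba kind: 4 of them were high in Manba and 5 were low. The lysosomal protease gene Ctsl (0 to 1.15 CPM in OKOR) ranged from 12.5 to 87.1 CPM in the 9 and from 0 to 18.9 CPM in the 11. Ephx2, a soluble epoxide hydrolase gene, stood at 0.516 CPM in OKOR and 27.8 CPM in MKOR, and the nuclear RNA Malat1 at 1.85 and 17.7 CPM.

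Values of follicle cell markers moved with these genes. The summed level of 25 cumulus and granulosa markers ranged from 89.7 to 176 CPM (median 131) in the 9 MKOR oocytes with high Spp1, from 60.4 to 147 CPM (median 75) in the other 11, and from 47.1 to 122 CPM (median 61.3) in OKOR. Of the 9, the oocyte with the lowest marker sum, 89.7 CPM, had 327 CPM of leukocyte markers. That oocyte held 90.4 CPM of Spp1, 87.1 CPM of Ctsl and 0.942 CPM of Ephx2. Cyp19a1, which encodes aromatase, stood at 48.3 CPM in OKOR and 56.1 CPM in MKOR. It made up 55.4 to 83.5% of the summed counts in OKOR and 62.5 to 87.6% in the 11 MKOR oocytes, but 6.58 to 74.9% (median 30.8%) in the 9. The other 24 markers summed to 10.5 to 25.5 CPM (median 16.9) in OKOR and 8.55 to 132 CPM (median 27.8) in MKOR. Granulosa pools of the same series held between 4012 and 9862 CPM of the 25 markers. Among the defining markers, Inha (an inhibin subunit) and Tnfaip6 (a cumulus matrix protein) had 0 counts in OKOR and 6.65 and 8.87 CPM in MKOR. In all, 12 of the 25 had 0 counts in the OKOR sum and 2 in the MKOR sum. Knockout controls of 6 months were higher still, with a median of 182 CPM over MKOC and a Spp1 sum of 532 CPM. The part of follicle cell RNA in these results was not tested, and in sums over oocytes fewer adhering cells and less RNA per cell cannot be told apart.

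**Figure D2:**
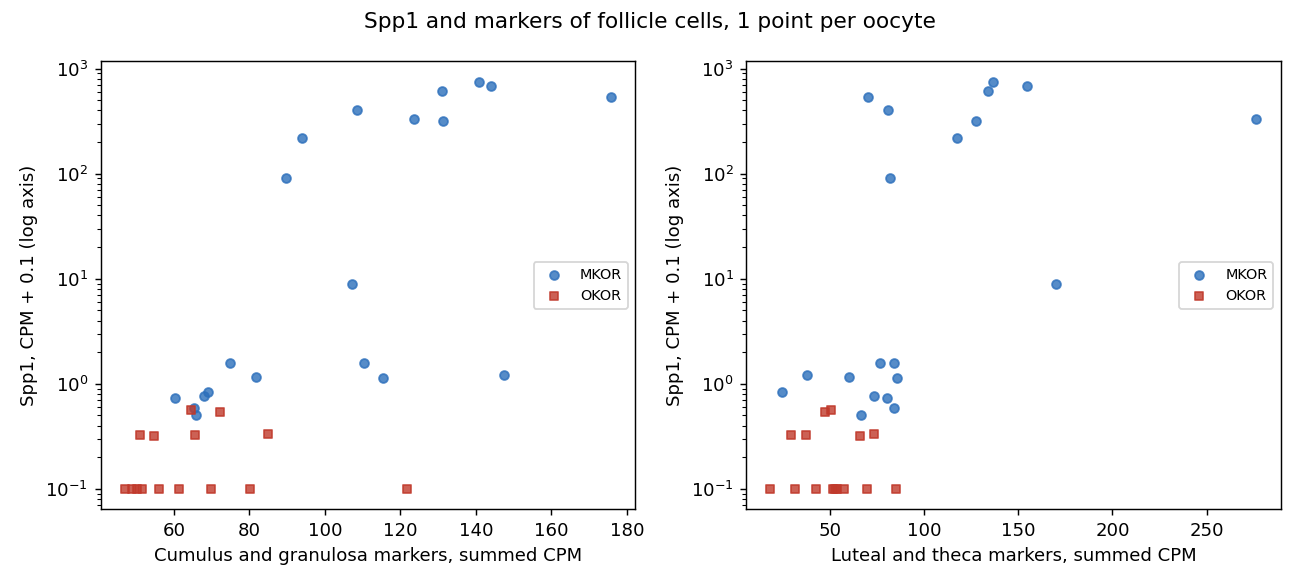
Spp1 in CPM plus 0.1 (log axis) against the summed CPM of cumulus and granulosa markers (left) and of luteal and theca markers (right), with 1 point per oocyte (MKOR circles, OKOR squares). The 9 MKOR oocytes with Spp1 at 90.4 CPM or more have marker sums of 89.7 CPM or more on the left, and all OKOR oocytes lie at 0.460 CPM of Spp1 or less.

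The others named for a negative difference were Tor1b, Obox3, Mmp11 and Chchd10. Tor1b, an ATPase of the endoplasmic reticulum lumen, ranged from 0.687 to 8.97 CPM in OKOR and from 1.61 to 133 CPM in MKOR. Within MKOR its sum was 2.82, 11.7 and 67.3 CPM for the column names with first number 1, 2 and 3, and the OKOR sum was 3.4 CPM. Obox3, a homeobox gene of the oocyte-specific Obox family, stood at 10.5 against 73.9 CPM, and reads of its near-identical copies may be split among them. Mmp11, a matrix metalloproteinase gene, and Chchd10, a mitochondrial intermembrane space protein gene, were 2.02 and 2.78 CPM in OKOR and 10.2 and 12.5 CPM in MKOR. Their exons overlap on opposite strands on chromosome 10, and no source used here says whether reads were assigned by strand, so their reads cannot be told apart.

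Of the 10 genes named for the size of a positive difference, none passed in the fit of group sums (adjusted p of 0.870 for each). In the fit of sums by the first number in the column names, 8 of the 10 passed, all but Rad51b and Olfr653, with Kdm4a at an adjusted p of 0.0104. Over all genes 1.96% were higher in that fit. The 10 were picked by the size of their difference in the same oocytes, so a call on them is no independent support. DESeq2 on the group sums passed Kdm4a (adjusted p of 0.0303) and Dgcr14 (0.0375). The histone demethylase gene Kdm4a ranged from 11.4 to 61.7 CPM (median 40.1) in OKOR and from 7.84 to 20.3 CPM in MKOR. Above the highest MKOR oocyte lay 12 of 15 OKOR oocytes, with a log2 difference of 1.52 (SE 0.36). Sympk, a scaffold of the machinery that cleaves and polyadenylates mRNA, ranged from 20.4 to 155 CPM against 14.1 to 56.1 CPM, with 11 of 15 above (log2 1.51, SE 0.39). The zinc finger gene Zfp709 ranged from 46.5 to 226 CPM against 13.2 to 69.9 CPM, with 13 of 15 above. Chdh, the mitochondrial choline dehydrogenase gene, ranged from 5.31 to 20.9 CPM against 1.07 to 8.96 CPM, and its exons overlap those of Cacna1d on the other strand.

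Akap6, which encodes an anchor for protein kinase A, had the highest fitted difference of the 10, 12.7 against 2.41 CPM (log2 2.47, SE 1.19). Its OKOR oocytes ranged from 3.48 to 31.6 CPM and only 5 of 15 exceeded the highest MKOR oocyte. Rad51b, a homologous recombination gene, stood at 20.3 against 6.97 CPM and was uneven within OKOR, at 18.5, 5.37 and 28.5 CPM for first numbers 1, 2 and 3. Rn7s1 and Rn7s2 are near-identical copies of the signal recognition particle RNA and stood together at 10.9 and 11.2 CPM against 2.95 and 3.00 CPM. They are not a polyadenylated class, so their counts in such libraries depend on how they were captured. Dgcr14, a spliceosome-associated gene, and the olfactory receptor gene Olfr653 stood at 14.3 against 4.71 CPM and 16.2 against 5.63 CPM.

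**Figure D3:**
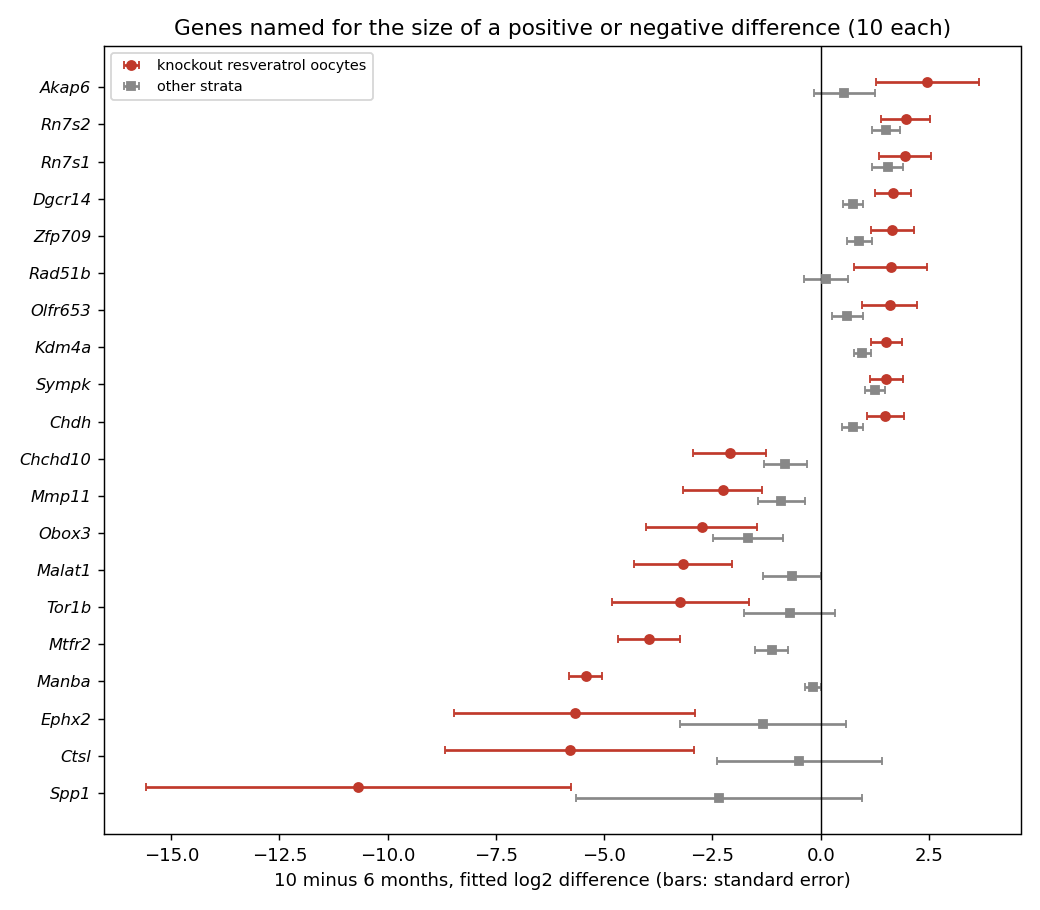
Fitted log2 difference between 10 and 6 months with its standard error for the 10 genes named for a positive and the 10 named for a negative difference, in knockout resveratrol oocytes (red circles) and in the other strata of genotype and treatment (grey squares). Manba is at -5.43 in red and -0.18 in grey; the grey points of Kdm4a and Sympk lie at 0.96 and 1.25.

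A few genes did not overlap between the groups at all, in any of the 35 oocytes. Every OKOR oocyte was above every MKOR oocyte for 4 genes (0.018% of those tested) and below for 6 (0.027%). They were picked by their values, so a call on them is no independent support. None passed in the fit of group sums, and 9 of the 10 passed in the fit of sums by the first number, where the lowest adjusted p was 0.00253 and Gm4353, at 0.211, did not pass. Snrpe, a core protein of spliceosomal snRNPs (chr1:133603871-133610291), ranged from 296 to 604 CPM in OKOR and from 172 to 269 CPM in MKOR (log2 0.92, SE 0.305). Slc43a3, a purine nucleobase transporter gene, ranged from 89.9 to 184 CPM against 38.4 to 85.5 CPM. The other two that were higher are genes named after genomic clones.

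Cnot8, a deadenylase subunit of the Ccr4-Not complex that shortens mRNA tails (chr11:58104153-58118594), ranged from 257 to 458 CPM in OKOR and from 491 to 707 CPM in MKOR (log2 -0.74, SE 0.26). Its paralog Cnot7 had a sum of 2083 CPM against 1888 CPM. Ccser2, a microtubule-binding protein gene, ranged from 59.2 to 132 CPM against 154 to 304 CPM. Rsc1a1 ranged from 62.1 to 129 CPM against 135 to 287 CPM, and it lies in exon sequence of Ddi2 on the same strand, so its reads cannot be told from those of Ddi2. Ddx59, an RNA helicase gene, ranged from 19.5 to 33.6 CPM against 34.9 to 60.1 CPM, with an overlapping transcript on the other strand. A numbered gene model and a pseudogene of Obox3 made up the 6.

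**Figure D4:**
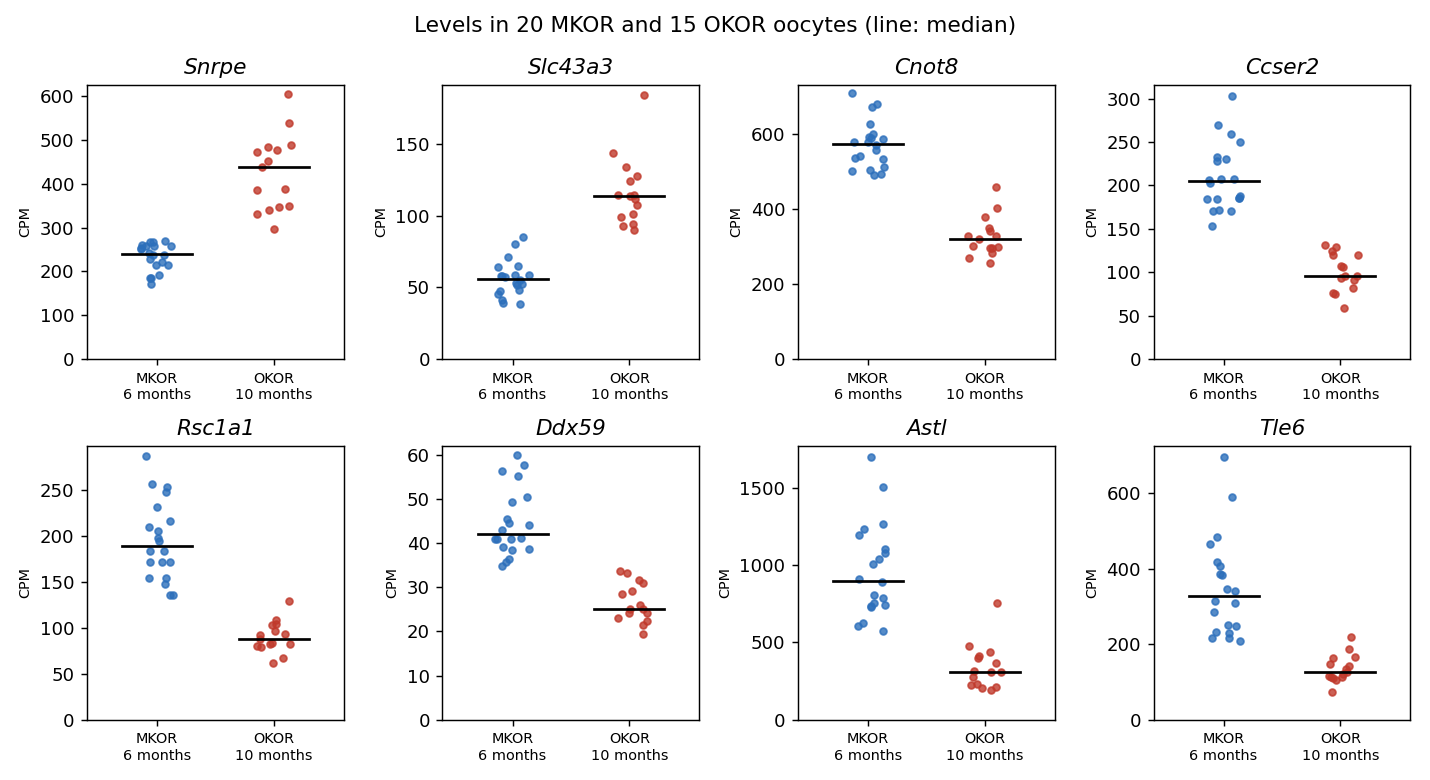
CPM of 8 genes in 20 MKOR (blue) and 15 OKOR (red) oocytes with the median as a line; each vertical axis starts at 0. The first 6 genes have no overlap, while Astl and Tle6 overlap in 1 OKOR oocyte each, 14 of 15 lying below the lowest MKOR oocyte.

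Over all genes, the first principal component of the 35 oocytes carried 24.3% of the variance of 6904 genes and set the groups apart, with OKOR between 6.08 and 40.6 and MKOR between -35.1 and -5.47. Within the groups, over 6537 genes at 10 CPM or more in both sums, the median coefficient of variation was 0.253 in OKOR and 0.253 in MKOR. It was higher in OKOR for 3341 genes and higher in MKOR for 3196.

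Genes of the egg coat and of oocyte growth were mixed. Among 14 members tested, 8 lay above 0 and 6 below, with a median log2 of 0.25 beside -0.02 over all genes, and 0 passed in either direction. Astl, which encodes ovastacin, the protease that cuts the zona pellucida after fertilisation (chr2:127338639-127357651), ranged from 193 to 754 CPM in OKOR and from 574 to 1697 CPM in MKOR (log2 -1.45, SE 0.22, adjusted p of 0.870, or 0.0055 in the fit of sums by the first number). Zp3, the zona glycoprotein known as the sperm receptor, had a median of 112 CPM against 254 CPM, and 13 of 15 OKOR oocytes lay below the lowest MKOR oocyte. Zp1 and Zp2, the partners of Zp3 in the coat, stood at 179 against 201 CPM and 251 against 188 CPM. Gdf9, a growth factor the oocyte sends to its follicle, stood at 5304 against 9151 CPM, and its partner Bmp15 at 4874 against 4174 CPM. The oocyte-secreted protein genes Oosp1 and Oosp3 stood at 3297 against 2003 CPM and 2043 against 1202 CPM.

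The subcortical maternal complex is a protein assembly under the egg membrane that early cleavage needs. Of its 12 genes 7 lay above 0 and 5 below (median log2 0.18), and none passed. Tle6, a core member, ranged from 72.4 to 219 CPM in OKOR and from 209 to 694 CPM in MKOR (log2 -1.33, SE 0.40). Khdc3, another core member, was at 13.6 against 40.4 CPM, with 12 of 15 OKOR oocytes below the lowest MKOR oocyte. Nlrp5, also known as Mater, stood at 406 against 441 CPM, and Nlrp4f was on the other side at 1830 against 999 CPM, with 12 of 15 above the highest. Of 18 genes of the Obox, Oog, Oas1 and Tcl1 families, 13 lay above 0 and 5 below (median log2 0.36), and none passed. Oog1 ranged from 263 to 650 CPM against 95.9 to 386 CPM.

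Meiotic regulators lay near the level of all genes. Among 26 genes of metaphase arrest and egg activation the median log2 was -0.12, with 10 above 0 and 16 below. Mos, the kinase that holds the arrest, stood at 1070 against 1079 CPM, and cyclin B1 (Ccnb1) at 5713 against 5040 CPM. Ccnb3, the cyclin of meiosis I exit, ranged from 75.2 to 217 CPM against 14.3 to 128 CPM, and Cdc20, the activator of the anaphase-promoting complex, from 142 to 400 CPM against 244 to 608 CPM. Of 33 spindle checkpoint and chromosomal passenger genes 19 lay above 0 and 14 below (median log2 0.05). The kinetochore gene Zw10 ranged from 15.3 to 42.3 CPM against 5.75 to 22.2 CPM (log2 0.87, SE 0.29). The checkpoint kinase gene Bub1b was at 1187 against 1148 CPM. For 20 cohesin genes, which hold sister chromatids together, the median log2 was 0.10, and the loader subunit Mau2 stood at 17.1 against 31.5 CPM. None of these 3 lists held a gene that passed.

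Regulators of stored mRNA had a median log2 of 0.19 over 43 genes (27 above 0, 16 below), again with none passing. Cnot10, a subunit of the same Ccr4-Not complex as Cnot8, ranged from 6.00 to 16.8 CPM in OKOR and from 1.54 to 10.5 CPM in MKOR. Dcp2, the decapping enzyme gene, stood at 125 against 76.4 CPM. Pabpc1l, the poly(A)-binding protein of the egg, was at 24.8 against 52.1 CPM, with 10 of 15 OKOR oocytes below the lowest MKOR oocyte. Btg4, the adaptor that brings the deadenylase to maternal mRNA, was at 4023 against 3635 CPM.

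Among chromatin and sirtuin genes none passed in the fit of group sums. The DNA methylation and Tet list had 8 members above 0 and 14 below (median log2 -0.12 over 22). Dnmt3a, the main de novo DNA methyltransferase of the growing oocyte, stood at 357 against 222 CPM (log2 0.75, SE 0.35), and Dnmt1, the maintenance enzyme, at 258 against 211 CPM. The isocitrate dehydrogenase gene Idh2 had 1 count in OKOR and 45 in MKOR, a ratio of 32.2 (95% counting interval 5.49 to 1300). Histone methylation genes had a median log2 of -0.10 over 39, and Kdm4a, described above, was their lowest p. Of the sirtuin deacetylases, Sirt1 stood at 13.3 against 14.9 CPM (log2 -0.10, SE 0.41) and Sirt6 at 13.8 against 13.3 CPM. The NAD-synthesising enzyme gene Nmnat2 was at 19.6 against 13.4 CPM, and the list of 21 had a median of -0.01.

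Of cytosolic ribosomal protein genes, 52 of 76 were below 0 (68.4%, against 51.1% of all genes), with a median log2 of -0.26, and 19 of 76 (25%) were lower by 2-fold or more, against 13.2% of all genes. None was higher by 2-fold, against 7.91% of all genes, and none passed. Rplp1, a protein of the ribosomal stalk, ranged from 2.53 to 9.93 CPM in OKOR and from 7.09 to 31.9 CPM in MKOR (log2 -1.10, SE 0.35). In the fit of sums by the first number in the column names, 14 of the 76 were lower and 1 higher, against 3.71% lower and 1.96% higher over all genes. Lower in that fit were 7 of 40 antioxidant, 7 of 77 respiratory chain, 5 of 46 proteasome and 5 of 29 cholesterol genes. So were 5 of 10 luteal and theca markers and 8 of 19 cumulus and granulosa markers. Other lists had calls both ways. Of 14 oocyte growth and zona genes 2 were higher and 3 lower, and of 18 genes of oocyte-specific families 3 and 2. Of 12 subcortical complex genes 2 were higher and 2 lower, and of 44 double-strand break repair genes 3 and 1. No cohesin, DNA methylation or sirtuin gene was called. Many of the 14 lower ribosomal protein genes were at low levels in the egg, such as Rpl3 at 0.349 against 2.87 CPM and Rps3 at 2.28 against 6.91 CPM. The higher one was Rps24 at 8.76 against 4.62 CPM. Mitochondrial ribosomal protein genes had a median log2 of 0.01 (39 of 77 above 0), with Mrps21 at 40.5 against 19.8 CPM.

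Among 77 genes of the respiratory chain and ATP synthase, 54 lay below 0 (70.1%), with a median log2 of -0.17 and 9 lower by 2-fold or more (11.7%, against 13.2% of all genes). Uqcr11, a small subunit of complex III (chr10:80402997-80406830), ranged from 0.683 to 4.62 CPM in OKOR and from 2.36 to 24.5 CPM in MKOR (log2 -2.10, SE 0.35). The complex I subunit gene Ndufa11 ranged from 2.72 to 8.93 CPM against 6.84 to 82.2 CPM, with 12 of 15 OKOR oocytes below the lowest. In mitochondrial dynamics and biogenesis (median log2 -0.11 over 29), Dnm1l, the fission GTPase, was at 262 against 177 CPM with 14 of 15 above the highest MKOR oocyte. Mfn1, a fusion GTPase, was at 36.4 against 69.4 CPM. No gene of these lists passed.

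Protein quality control and protection against damage gave medians between -0.23 and 0.08. Proteasome subunit genes had a median log2 of -0.19 (28 of 46 below 0); Psme1, of the proteasome activator, had 1 count in OKOR and 106 in MKOR, a ratio of 75.8 (95% counting interval 13.3 to 3020). Heat shock and unfolded protein genes had a median of -0.05, with the chaperone gene Hsph1 at 44.7 against 23.0 CPM. Antioxidant enzymes had 26 of 40 below 0 and 10 lower by 2-fold or more (25%), with a median of -0.23. The glutathione transferase gene Gstm2 had no count in OKOR and 0.880 CPM in MKOR, at least 19.3-fold lower with a floor of 3 counts over the group. Gpx1, a glutathione peroxidase, was at 5.66 against 12.5 CPM, and G6pdx, which supplies NADPH, at 374 against 214 CPM. Double-strand break repair genes had a median of 0.08 over 44, with Xrcc3, a homologous recombination gene, ranging from 7.16 to 37.1 CPM against 4.40 to 11.6 CPM.

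The Bcl2 family list had a median log2 of -0.21 over 23 genes, which was 0.04 with its genes at 0 counts set to the 3-count floor. Its lowest p was that of Bok, with no count in OKOR and 26 in MKOR, at least 6.20-fold lower. Autophagy and lysosome genes had a median of 0.01; the lysosomal protease gene Ctsd ranged from 8.02 to 30.5 CPM against 16.8 to 121 CPM (log2 -1.25, SE 0.32). Cholesterol synthesis and transport genes had 18 of 29 below 0 and a median of -0.35, with the sterol demethylase gene Cyp51 (which overlaps Akap9 on the other strand) at 2.96 against 5.97 CPM. Interferon response genes had 14 of 18 below 0 and a median of -0.35, or -0.30 with the floor. Ifi27 had no count in OKOR and 0.739 CPM in MKOR, at least 16.2-fold lower.

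**Figure D5:**
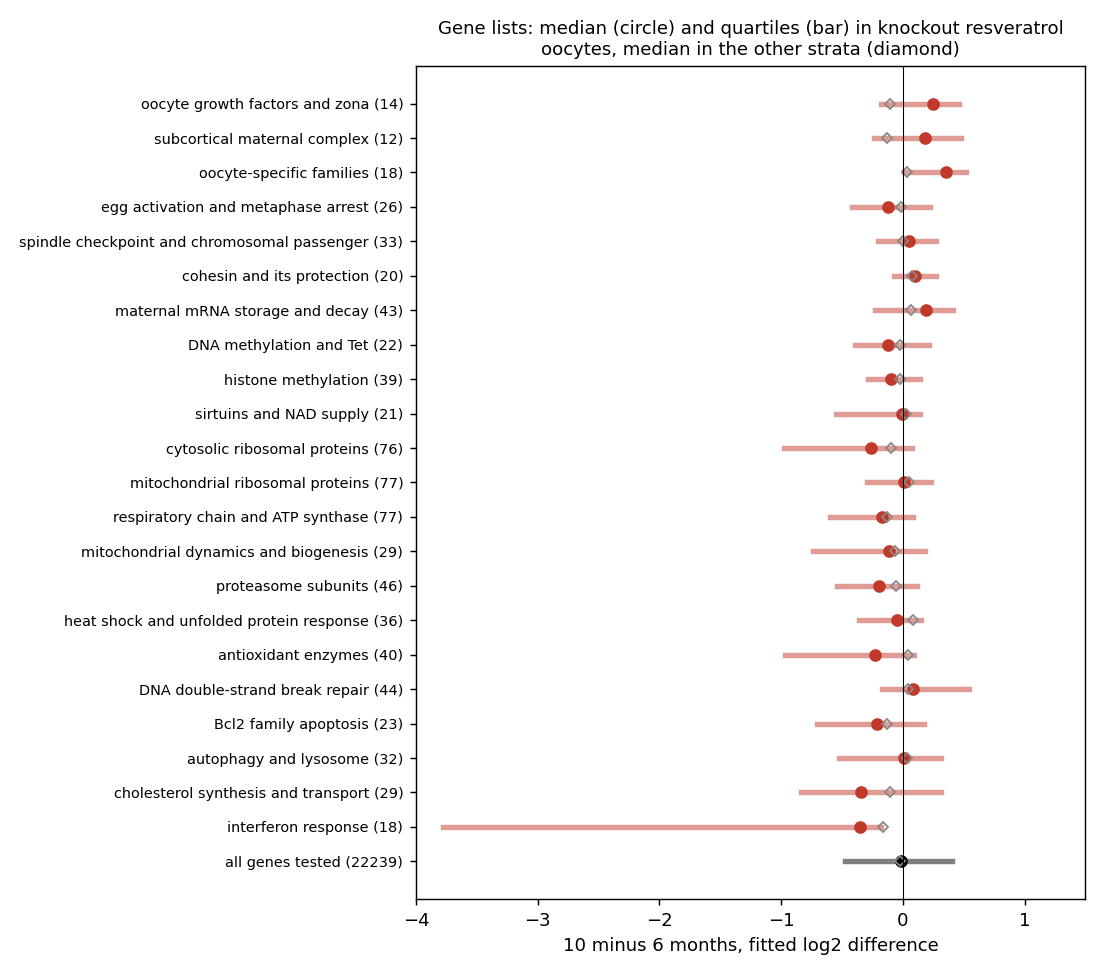
Median (circle) and quartiles (bar) of the fitted log2 difference between 10 and 6 months over the members of each gene list other than the markers of other cell types, in knockout resveratrol oocytes, with the median in the other strata as a diamond and the number of genes tested in brackets. All genes are at -0.02; the medians of the lists drawn lie between -0.35 and 0.36, and among them the bar of interferon response genes reaches furthest below 0.

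None of the markers of other cell types passed in the fit of group sums, and all but the stromal list had a negative median. Cumulus and granulosa markers had a median log2 of -4.09 over 20 tested, or -1.92 with the 3-count floor, and Inhba (an activin subunit) had 3 counts in OKOR and 91 in MKOR, a ratio of 21.7 (95% counting interval 7.19 to 107). Luteal and theca markers had a median of -3.69 over 10, or -2.63 with the floor. Akr1c18, the progesterone-degrading enzyme of the corpus luteum, stood at 0.0911 CPM in OKOR and 10.9 CPM in MKOR, where 12 of 20 oocytes had 0 counts and 3 exceeded 20 CPM. The summed leukocyte markers ranged from 7.59 to 17.3 CPM in OKOR and from 9.04 to 327 CPM in MKOR, with a median of 17.2 CPM and 1 oocyte at the top. C1qb, a complement gene of macrophages, was at 1.82 against 4.94 CPM, and the MKOR level was 2.85 CPM without that oocyte, which held 48.3 CPM. Among erythrocyte markers Hba-a1 had no count in OKOR and 1.29 CPM in MKOR, at least 28.4-fold lower, and summed erythrocyte markers reached at most 6.92 CPM in an oocyte. Oviduct markers had a median log2 of -0.75 over 5, or -0.52 with the floor, and Krt18 had 0 and 6 counts. Stromal and endothelial markers had a median of 0.02 over 8, with Pdgfra at 0.592 against 0.272 CPM, which overlaps transcripts on the other strand. Their summed level still had a lower median in OKOR, 77.8 CPM (60.5 to 126) against 115 CPM (80.9 to 141) in MKOR. Leukocyte markers had a median of -3.47 over 13, which was 0 without that 1 oocyte, and the 2 erythrocyte markers tested -5.24, or -2.85 with the floor. The 0 need not mean equal levels. A gene with no count in either sum also takes a fitted log2 of 0, and 7 of the 18 listed leukocyte markers had no count in OKOR.

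The 10-month minus 6-month difference was then set against that of the other 3 strata, wild type with and without resveratrol and knockout without it. The difference between them was tested in the same model, and 1 gene passed (0.0045%), Manba, with a log2 of -5.24 (SE 0.41, adjusted p of 0.0348) beside -0.18 in the other strata. At an unadjusted p under 0.05 there were 422 genes (1.9%). The call was lost without the sum of any 1 of the 6 other groups of 6 or 10 months, and without the OKOR oocytes whose first number is 3. The next by p were Slc39a8, with -6.70 in knockout resveratrol oocytes and 0.56 in the other strata, and Wdr4, a subunit of a tRNA methyltransferase. Wdr4 had no count in OKOR and 260 in MKOR, at least 62.0-fold lower, but 1 MKOR oocyte, at 64.4 CPM with no other above 2 CPM, held most of it; its exons overlap an antisense gene.

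Several of the genes described above had the same direction in all 4 strata. The log2 ratio of sums for Astl was -1.52 in knockout resveratrol oocytes and -0.80, -0.60 and -0.81 in wild-type control, wild-type resveratrol and knockout control oocytes. For Kdm4a it was 1.44 beside 1.16, 0.70 and 1.03, and for Sympk 1.44 beside 1.21, 0.95 and 1.62. Snrpe was at 0.85 beside 0.56, 0.54 and 0.76, and Cnot8 at -0.81 beside -0.19, -0.45 and -0.48. Slc43a3 was not of that kind, at 1.07 beside -0.01, -0.15 and 0.03, though the test of its difference gave 1.17 with an SE of 0.69 and an adjusted p of 1. Among genes at 10 CPM or more, 134 of 285 (47.0%) with a difference of 2-fold or more had the same sign in all 3 other strata, against 2379 of 6981 (34.1%) of the rest. A single age difference fitted over all 4 strata called 0 of 20806 genes higher and 1 lower (0.00481%), Akr1c18, while Manba had a log2 of -2.02 and an adjusted p of 0.415 there.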

How the data were processed

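The deposited table gives raw counts of reads for each gene as whole numbers. HISAT2 2.1.0 is named in the submitters' processing notes, as are DESeq2, featureCounts and mm10, with no roles. Neither strand use nor the gene annotation is given there. Of 53619 symbols, 28390 matched 1 position in GENCODE vM21 (GRCm38, the assembly mm10 names), whose coordinates are given. No column of the table was left unused and no pair held identical values. Each group is 1 sample here, because the labels name no mouse; columns could be matched to groups but not to single titles. For young wild-type oocytes, which are tagged as knockout, the title was followed.

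Counts were summed over the oocytes of each of 10 groups and tested with edgeR 4.0.16 in R 4.3.3 (quasi-likelihood, TMM, filterByExpr with a minimum count of 10, Benjamini-Hochberg over all genes at 0.05, which is the adjusted p throughout). OKOR and MKOR had their own means and the other 8 sums additive terms for age, genotype and treatment, leaving 3 residual degrees of freedom. With 1 sum a group, p-values measure the departure of those 8 sums from additivity, which may be technical, and not the spread between mice. Poisson intervals and the floor of 3 counts cover counting error only. The test was run on simulated sums drawn from its own fitted model. Such sums cannot check whether the OKOR and MKOR sums vary like the other 8. DESeq2 1.42.0 was an alternative.

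By rule, the genes named are Tet1, Tet2 and Tet3; the 10 largest positive and negative differences at 10 CPM or more with counts in 80% of oocytes, filled up with genes that did not pass; 1 gene per list that did not pass (up to 3 that did); and the 3 lowest p for the difference from the other strata. Other genes were chosen after their values were seen. The members, lists and tests were chosen with earlier results of these data known. Alternatives were other scaling, no filter, thinning to 3386039 counts an oocyte, other sample sets and leaving out each oocyte or sum. The fits of sums by column-name number, with and without that number as a block, and without either kind of MKOR oocyte were added after seeing the data.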

Additional observations from a re-analysis of the deposited data

Results flagged for a closer look

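The age difference of Manba in knockout resveratrol oocytes differed from that in the other strata by a log2 of -5.24 in a test of the difference itself. It rests on 12 of 20 MKOR oocytes at 44.7 CPM or more.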

How the results depend on the processing

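With RLE size factors, with thinned oocytes and without the 15 oocytes over 2 times the median of cumulus and granulosa markers (12 of MKOC, 3 of MKOR), 0 genes were higher and Manba alone was lower and particular to knockout resveratrol oocytes, as in the report. Without the filter 1 gene was higher, 8 lower and 3 had a particular age difference. DESeq2 gave 17, 66 and 20, and sums by the first number in the column names 386, 729 and 17, with 39 of the 60 named genes passing. With the 8 groups of 6 and 10 months alone, 0 had a particular age difference. Without the MKOR oocytes above 20 CPM of Manba 1 gene was higher (Cyp39a1, which divides the same oocytes as Manba) and 0 lower. Genes that do not overlap then numbered 30 higher and 52 lower, and without the other 8 they numbered 30 and 46. Leaving out 1 oocyte, column-name number or other sum gave 0 genes higher, 0 to 2 lower (Mtfr2 added without the MWTC sum; 0 without the MKOC or OWTC sum) and 0 to 1 particular. It gave 4 to 69 non-overlapping genes higher and 6 to 52 lower, both highest without the 8 OKOR oocytes of number 3. Leaving out oocytes cannot lower these counts, and whether how many were left out or their levels mattered was not tested. Coefficients of variation were 0.208 to 0.257 in OKOR and 0.239 to 0.255 in MKOR. Directions turned for genes that had not passed. Tet2 was at 0.13 thinned and 0.065 with 1 age difference; leaving out gave -0.288 to 0.0714 for Tet2, -0.167 to 0.383 for Ppp1r10 and -6.04 to 0 for Krt18. Pdgfra was at -0.16 with 1 age difference. Without the MKOR oocytes of high Manba, Mtfr2 was at 0.18, Cyp39a1 at 5.08 (passing) and Ppp1r10 at -0.88. Without the others Kctd5 was at 0.78. These genes divide the same oocytes as Manba, so leaving out a kind also selects on their own level. The Cyp39a1 call, with 0 to 1.41 CPM left in MKOR, is therefore no independent result. The cause of the turned directions was not tested. With the first number as a replicate block that fit gave 368, 538 and 21. Same-numbered OKOR and MKOR sums deviated from their group means with correlations of 0.0739, 0.0733 and 0.227 over genes. Differently numbered sums gave -0.178 to 0.0931. OKOR numbers 2 and 3 correlated best with their own number, and OKOR number 1 with MKOR number 2 (0.0931). With 3 sums a group, these values cannot decide whether the numbers pair the sums.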
